A study of Homo sapiens with 4 samples.

Results

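The loops described here are those that HiCCUPS, the loop caller of Juicer, placed at 10 mitotic regulator genes: AURKA, AURKB, PLK1, CCNB1, CDK1, BUB1, TTK, TOP2A, KIF11 and CENPE. A loop was taken when at least 1 of its anchors overlapped the body of one of these genes extended by 20 kb on each side, with gene models of GENCODE 44 on GRCh37. Of 77275 loop calls in 4 lists, 91 met this rule, and all 10 genes had at least 1. Calls of different lists whose anchor midpoints lay within 20 kb at both ends were joined, which gave 46 distinct loops of 35133 in the series. Arima-HiC, which reads pairs of DNA ends that lie close together in crosslinked nuclei, was applied to the MDA-MB-231 line of triple-negative breast cancer, labelled wild type. Cells received 75 nM THZ1, a covalent CDK7 inhibitor, or DMSO (vehicle) for 48 h. Each condition had 2 libraries, which the series calls technical replicates, so that errors and p-values measure the spread between libraries and may not cover that between cultures. A loop list holds no expression values, so the identity of the cells was not checked here.

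The 10 genes encode much of the machinery of cell division. CDK1 bound to cyclin B1 (CCNB1) drives entry into mitosis, PLK1 and Aurora A (AURKA) mature the centrosomes and build the spindle, and KIF11 pushes the spindle poles apart. Aurora B (AURKB) corrects faulty attachments at kinetochores, CENPE moves chromosomes to the spindle equator, BUB1 and TTK (MPS1) run the spindle assembly checkpoint, and topoisomerase II alpha (TOP2A) untangles sister DNA. Chromatin loops bring distant stretches of a chromosome together and are often held by cohesin between CTCF sites that point toward each other. Promoters of late cell cycle genes commonly carry CCAAT boxes, bound by NF-Y, and a cell cycle genes homology region (CHR), bound by the MuvB complexes.

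Promoters are shown for KIF11, PLK1 and CCNB1. A loop anchor lay on the start of each, for PLK1 on the RefSeq start only. Anchors also lay on the starts of CDK1, TOP2A and CENPE, whose promoters were matched but are not printed. At CENPE, whose promoter holds neither CCAAT nor the CHR core, a start loop was called in both THZ1 libraries alone. The printed promoters are thus a selection, and a tie between motifs and changes with THZ1 was not tested. With THZ1 the KIF11 loop was weaker relative to local expected contacts, and the loops at the PLK1 and CCNB1 starts were not called. The CCNB1 start loop was called in vehicle replicate 1 alone. The promoters printed are RefSeq sequences of 250 bases up to the start site, all on the plus strand. Their GRCh38.p14 coordinates are of a different build from the GRCh37 of the loops. Capitals mark CCAAT and the CHR core TTTGAA, searched on both strands, and no marked motifs overlap.
KIF11 promoter (GRCh38.p14 chr10:92592880-92593129): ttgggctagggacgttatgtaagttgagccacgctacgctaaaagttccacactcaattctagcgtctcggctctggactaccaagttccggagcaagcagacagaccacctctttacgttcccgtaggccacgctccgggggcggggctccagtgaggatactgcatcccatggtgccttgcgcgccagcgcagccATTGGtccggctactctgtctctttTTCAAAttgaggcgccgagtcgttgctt
PLK1 promoter (GRCh38.p14 chr16:23678639-23678888): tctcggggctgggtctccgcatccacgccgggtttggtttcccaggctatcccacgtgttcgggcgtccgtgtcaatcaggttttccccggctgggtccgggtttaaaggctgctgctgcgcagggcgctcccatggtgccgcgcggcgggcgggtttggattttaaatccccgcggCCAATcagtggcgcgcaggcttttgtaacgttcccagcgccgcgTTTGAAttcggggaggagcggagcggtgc
CCNB1 promoter (GRCh38.p14 chr5:69166900-69167149): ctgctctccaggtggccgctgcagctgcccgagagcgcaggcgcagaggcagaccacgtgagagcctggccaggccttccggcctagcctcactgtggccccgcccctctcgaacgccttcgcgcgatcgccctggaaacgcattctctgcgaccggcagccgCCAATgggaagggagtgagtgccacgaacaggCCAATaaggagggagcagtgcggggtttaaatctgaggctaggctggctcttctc
In KIF11 the CCAAT box begins 53 bases and the CHR core 28 bases before the start, both on the minus strand. In PLK1 they begin 73 and 29 bases before the start, both on the plus strand. CCNB1 has CCAAT boxes 87 and 55 bases before its start and no TTTGAA in these letters. RefSeq promoters were matched for 8 of the 10 genes, not for AURKA and TTK, and AURKB and CDK1 have more than 1 entry. At least 1 CCAAT was found for 7 of the 8 genes, all but CENPE, and TTTGAA for 4 (CDK1, KIF11, PLK1 and TOP2A). Counted by promoter entry, 9 of the 10 entries of these genes hold CCAAT and 5 hold TTTGAA. Over all 35116 RefSeq promoters of this length, 32.0% hold CCAAT and 13.3% hold TTTGAA. Such a match is a string of letters and not a bound site.

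Letters that match the core of the CTCF motif, CCANNAGNNGGC, were searched on both strands of 5 kb anchors, in the anchor pair that most lists share. The sites below are those at the loop that most libraries called at each gene (both of those tied at CENPE), where it held any, printed 5′ to 3′ on the strand named, with the core in capitals.
KIF11 to IDE loop, first anchor (GRCh37 chr10:94276943-94276962, plus strand): aaagCCACCAGATGGCgctc
KIF11 to IDE loop, second anchor (GRCh37 chr10:94334916-94334935, minus strand): aacaCCACTAGGAGGCttgc
BUB1 to ACOXL loop, second anchor (GRCh37 chr2:111497056-111497075, minus strand): tttcCCAGAAGATGGCatca
CDK1 flank loop, second anchor (GRCh37 chr10:63044227-63044246, minus strand): atgaCCACTAGATGGCactg
AURKA to RTF2 loop, second anchor (GRCh37 chr20:55043832-55043851, minus strand): gtcgCCAAGAGCCGGCccac
CENPE flank to SLC39A8 loop, first anchor (GRCh37 chr4:103350824-103350843, plus strand): ggctCCAGGAGAGGGCttgg
CENPE flank loop of 470 kb, first anchor (GRCh37 chr4:103540109-103540128, plus strand): gagtCCAGAAGTAGGCtcca
Of the 8 distinct loops called in all 4 libraries that had a 5 kb call, 1, the KIF11 loop, held a core on the plus strand at the first anchor and on the minus strand at the second, so that both cores point inward. In 4 of these 8 loops, all of them near AURKB, neither anchor held the core. In 1 of the 4 the joining rule put vehicle calls with 10 kb anchors, not searched, with THZ1 calls at 5 kb anchors (8090001 to 8130000). A loop called in vehicle has these same 5 kb anchors, so they are counted again among the 24 and the 18 below. Of all 24 distinct loops at these genes with a 5 kb call, 1 held the inward pair and 18 held no core. Of 2324 loops of the series with identical 5 kb anchors in all 4 lists, 10.7% had the inward pair, 1.08% the outward pair and 57.2% any core. That set is stricter than those at these genes. A missing core says only that these letters are not in the window.

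Vehicle replicates 1 and 2 held 22 and 31 loops at these genes, and each THZ1 library held 19, below both vehicle values. The mean under vehicle was 26.5 ± 6.36 (SD, n = 2) and that under THZ1 was 19.0 ± 0 (SD, n = 2), a ratio of 0.717. All loops of the series changed by nearly the same ratio, 0.718, from 20768 and 24219 to 17222 and 15066. Per 10000 loops of its library, the genes held 10.6, 12.8, 11.03 and 12.6 loops in vehicle replicates 1 and 2 and THZ1 replicates 1 and 2, and these values overlapped between the conditions. Contacts at all called loops summed to between 551436 and 762701 per library. This sum depends on how many loops were called and on their anchor widths, so it does not measure sequencing depth. The part of depth in the number of calls was not tested.

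**Figure D1:**
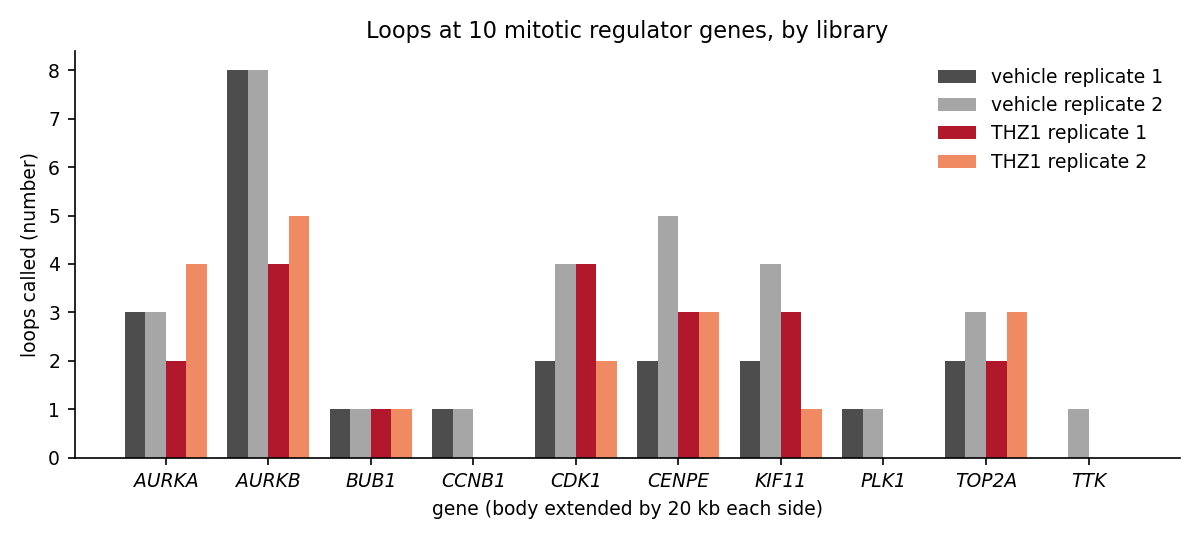
Number of loops called at each of the 10 genes (body extended by 20 kb each side) in each library. Bars are single libraries. AURKB had 8 loops in each vehicle library against 4 and 5 under THZ1, and CCNB1 and PLK1 had 1 in each vehicle library and 0 in each THZ1 library.

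Gene by gene, AURKB, CCNB1 and PLK1 had fewer loops in both THZ1 libraries than in both vehicle libraries, and no gene had more in both. AURKB had 8 and 8 against 4 and 5, CCNB1 1 and 1 against 0 and 0, and PLK1 1 and 1 against 0 and 0. That is 3 of 10 genes lower, beside 28.9% of the 17022 protein-coding genes with a loop, and 0 of 10 higher, beside 3.01%. The share of lower genes was therefore near the background. An exact two-sided permutation test gave p = 0.333 for each of these 3 genes, the smallest p that a comparison of 2 with 2 libraries allows. The other 7 genes overlapped between the conditions. AURKA had 3, 3, 2 and 4 loops in the order vehicle 1, vehicle 2, THZ1 1 and THZ1 2, CDK1 had 2, 4, 4 and 2, and KIF11 had 2, 4, 3 and 1. CENPE had 2, 5, 3 and 3 loops, TOP2A had 2, 3, 2 and 3, BUB1 had 1 in every library, and TTK had 1 in vehicle replicate 2 alone. Without vehicle replicate 1, 6 genes were lower in both THZ1 libraries, and with the gene bodies alone, without the flanks, only PLK1 was. CENPE was higher in both THZ1 libraries with the gene bodies alone and without vehicle replicate 2, and AURKA was higher without THZ1 replicate 1. Leaving out a library makes non-overlap easier for any gene. The shares over all protein-coding genes were not computed for these settings, so these counts cannot be set against a background.

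Of 40 other mitotic genes in 5 lists, 7 had fewer loops in both THZ1 libraries (17.5%) and 2 had more (5%). Over the 17022 protein-coding genes with a loop these shares were 28.9% and 3.01%, so the share with fewer was below the background. Those of the 40 with fewer were ANLN, CDC25C and PKMYT1 among regulators of CDK1 and of anaphase and cytokinesis. Among spindle motors and factors they were HMMR, KIF18A, KIF4A and NUSAP1. KIF18A, a kinesin that limits the swing of chromosomes, had 6 loops in each vehicle library and 3 in each THZ1 library. Those with more were SPC24, a subunit of the NDC80 complex at kinetochores, with 2 and 3 against 4 and 4, and KIF20A, a kinesin of cytokinesis, with 0 and 1 against 2 and 2. None of the 5 checkpoint genes and none of the 3 other genes of the passenger complex was separated in this way. Over the 40 genes the calls summed to 119 and 145 under vehicle and to 111 and 93 under THZ1. The ratio was 0.773, beside 0.725 over all protein-coding genes with a loop.

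**Figure D2:**
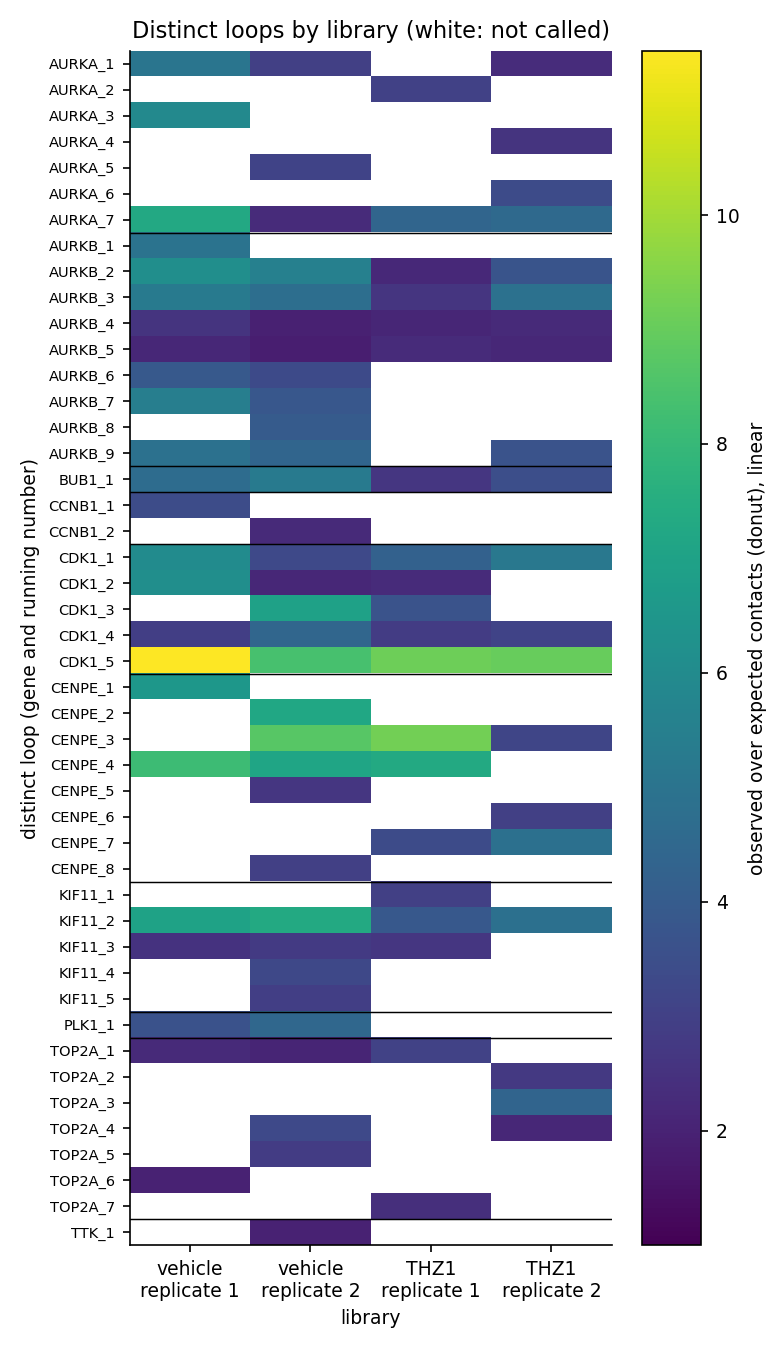
The 46 distinct loops at the 10 genes, numbered within each gene along the chromosome, by library. Colour gives observed over expected contacts at the call on a linear scale, and white marks no call. Loops called in a single library are scattered over genes and libraries, and those in all 4 lie at AURKA, AURKB, BUB1, CDK1 and KIF11.

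By calling library, 10 of the 46 distinct loops (21.7%, beside 23.9% of all 35133) were called in all 4 libraries and 23 (50%, beside 41.9%) in 1 library. Of these single calls vehicle replicate 2, the library with the most loops, held 10, vehicle replicate 1 held 5, THZ1 replicate 1 held 3 and THZ1 replicate 2 held 5. As shares of the 46 loops these are 21.7%, 10.9%, 6.52% and 10.9%, beside 17.9%, 11.3%, 7.33% and 5.37% of all loops. Vehicle-only loops, with a call in both vehicle libraries and none joined to it from THZ1, numbered 3 (6.52%, beside 9.83% of all), and there was 1 THZ1-only loop, defined likewise (2.17%, beside 2.38%). Both shares rest on few loops, and their difference from the background was not tested. The first 3 are the PLK1 to PALB2 loop and 2 loops near AURKB. For 1 of these, from 8090001 to 8130000, both THZ1 lists hold a loop with identical anchors that the joining rule gave to another loop, so it is not absent with THZ1. The last is a loop at the start of CENPE. A list gives no contacts where no loop was called, so a missing call shows only that the position did not pass the caller's thresholds. These counts rest on all 4 libraries. Leaving out 1 library loosens both definitions, since a call in the library left of that condition, or its absence there, is then enough. So loosened, the vehicle-only loops numbered 13 (vehicle replicate 1 left out), 8 (vehicle replicate 2), 7 (THZ1 replicate 1) or 5 (THZ1 replicate 2), and the THZ1-only loops 1, 2, 6 or 4 in the same order. Shares over all distinct loops were not computed for these settings, so these counts say nothing particular to these genes.

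CDK1 and its activator differed in how steadily their loops were called. Neither THZ1 library listed a loop at CCNB1, and the vehicle libraries listed different ones. In vehicle replicate 1, a 50 kb loop on chromosome 5 from 68460001 to 68515000 joined the anchor on the CCNB1 start to MRPS36, with 30 contacts against 8.77 expected. In vehicle replicate 2, a 50 kb loop from 68480001 to 68540000 joined the 3′ flank, on the kinetochore gene CENPH, to CDK7, the target of THZ1, with 42 contacts against 18.9 expected. CDK1, in contrast, had 5 distinct loops on chromosome 10, and 3 of them were called in all 4 libraries. The strongest ran 465 to 470 kb from the 3′ flank of CDK1 to an anchor without a protein-coding gene (62570001 to 63050000). Observed over expected contacts were 11.4 and 8.40 with vehicle and 9.13 and 9.004 with THZ1, on contacts of 13 and 29 against 15 and 15, with the conditions overlapping. The 8.40, with 29 contacts, came from 10 kb anchors and the other values from identical 5 kb anchors. The overlap thus rests on a call of unlike width. A loop of 320 to 325 kb from the CDK1 start or its 5′ flank to ANK3, the ankyrin G gene, had values of 6.02 and 3.31 under vehicle and 4.22 and 5.18 under THZ1. Here 3.31 came from 25 kb anchors and the others from 10 kb anchors. The third, of 125 to 150 kb to RHOBTB1, had 2.93 and 4.44 with vehicle and 2.85 and 3.10 with THZ1. At this loop 2.93 came from 25 kb anchors and the others from 10 kb anchors. At the last loop both vehicle calls lay just outside the 20 kb flank, as did 3 of the 4 calls of the strongest, so these 5 calls are not among the 91.

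PLK1 had a single distinct loop, called with identical anchors in both vehicle libraries. It spans 40 kb on chromosome 16, from 23650001 to 23695000, and joins PLK1 to the neighbors PALB2, a partner of BRCA2 in DNA repair, and DCTN5, a dynactin subunit. Contacts were 16 and 22 against 4.40 and 4.92 expected, ratios of 3.63 and 4.47. The anchor overlaps an exon of PLK1 by GENCODE, whose gene starts at 23688977, and the RefSeq promoter printed above ends in GRCh37 at 23690209, inside the same anchor. The false discovery rate against the donut was 0.0034 and 3.4e-06, and the largest such value in the lists was 0.0997.

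The Aurora kinase genes differed in where their loops lay. At AURKA on chromosome 20, a loop of 60 to 75 kb from the start shared by AURKA and CSTF1, or from CSTF1 just beside it, was called in all 4 libraries, ending at RTF2 in 3 of them and at CASS4 in vehicle replicate 2. With the same 5 kb anchors (54965001 to 55045000), vehicle replicate 1 had 39 contacts against 5.33 expected and THZ1 replicate 1 had 37 against 8.39, ratios of 7.31 and 4.41. The call of vehicle replicate 2, with 10 kb anchors, had a ratio of 2.28, and that of THZ1 replicate 2 had 4.58, so the conditions overlapped. A loop of 170 to 175 kb from the AURKA start to an anchor without a protein-coding gene was called in both vehicle libraries and THZ1 replicate 2. With identical 25 kb anchors, contacts were 89 in vehicle replicate 2 and 113 in THZ1 replicate 2, and ratios were 2.97 and 2.32. The other 5 distinct loops of AURKA were called in 1 library each.

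**Figure D3:**
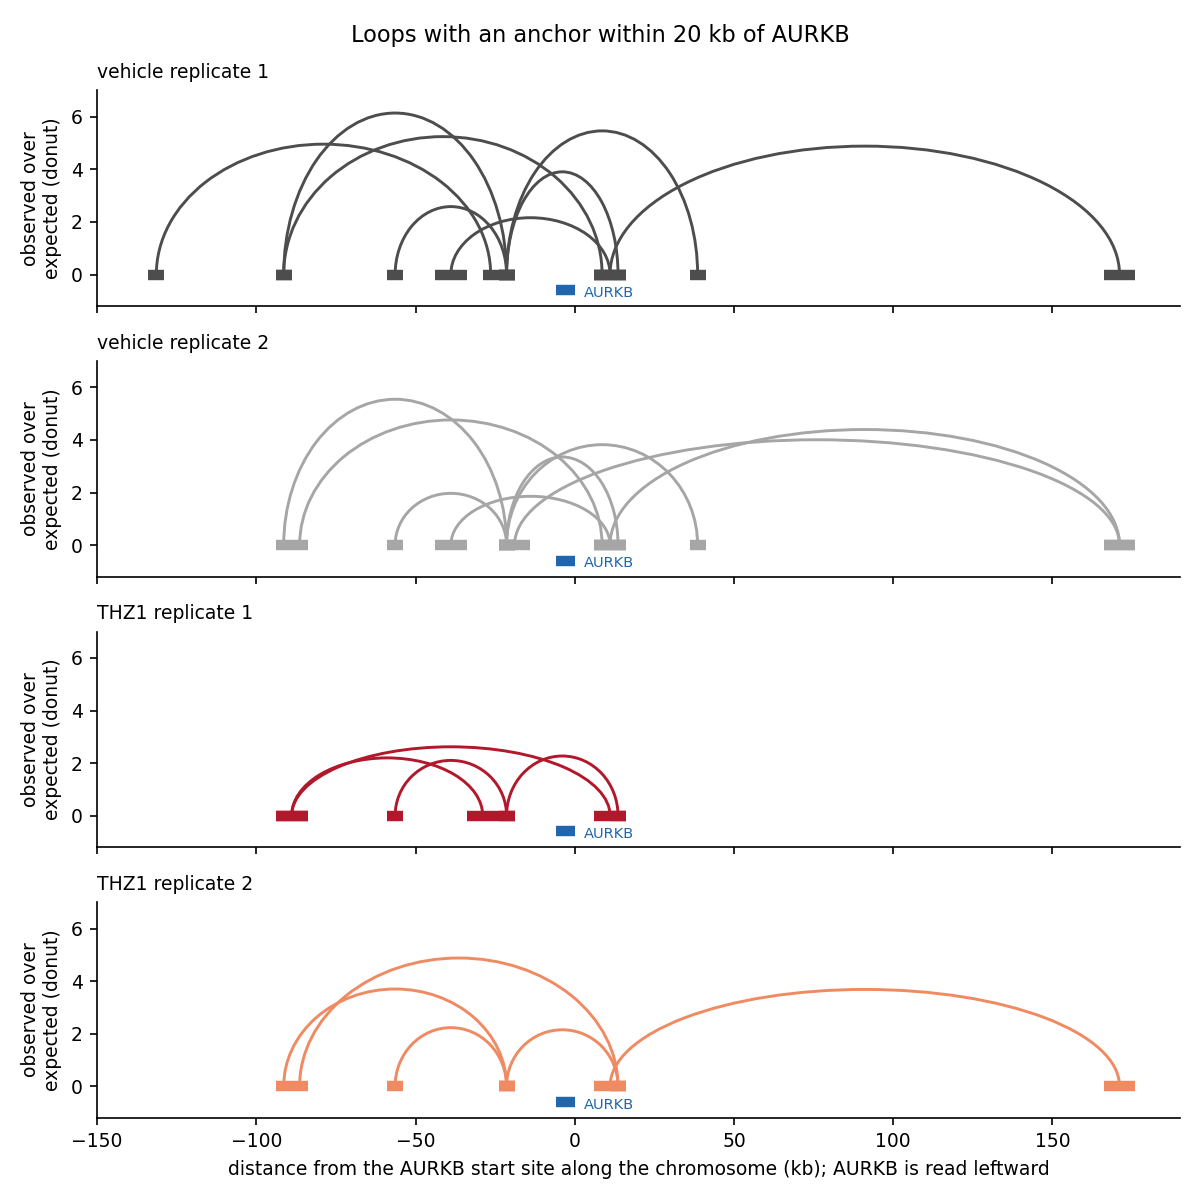
Loops with an anchor within 20 kb of AURKB in each library, by distance from the AURKB start site in kb. Arc height is observed over expected contacts, thick bars are anchors, and the blue bar is AURKB. In every library the arcs end on either side of the gene and not on it, and THZ1 replicate 1 has no arc to the right of 20 kb.

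AURKB had the most calls, and none of their anchors touched the gene. They lay on either side of it on chromosome 17, near BORCS6, a gene of lysosome positioning, and near CTC1, a gene of the telomeric CST complex. A 60 kb loop from BORCS6 across AURKB to CTC1 and PFAS (8090001 to 8155000) was vehicle-only, with identical anchors in both lists. It had 35 and 34 contacts against 6.41 and 8.90 expected, ratios of 5.46 and 3.82. A 70 kb loop from BORCS6 away from AURKB to HES7 and ALOXE3 (8020001 to 8095000) had identical 5 kb anchors in 3 lists. Contacts there were 68 and 70 with vehicle and 39 in THZ1 replicate 2, against 11.1, 12.6 and 10.5 expected. THZ1 replicate 1 had a 10 kb call beside it with a ratio of 2.20, beside 6.14 and 5.55 with vehicle and 3.70 in THZ1 replicate 2, so the conditions did not overlap. The 160 kb loop from CTC1 to KRBA2 and RPL26 had ratios of 4.88 and 4.40 with vehicle and 3.68 in THZ1 replicate 2, and was not called in THZ1 replicate 1.

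BUB1 and TTK, the checkpoint kinases, had 1 distinct loop each. The BUB1 loop, of 60 to 65 kb on chromosome 2 from 111430001 to 111500000, joins an exon at the 5′ end of BUB1 to ACOXL and was called in all 4 libraries. It had 25 and 34 contacts under vehicle and 22 and 24 under THZ1, against 5.35, 6.44, 8.33 and 6.84 expected, and ratios of 4.67, 5.28, 2.64 and 3.51. Both THZ1 ratios were below both vehicle ratios. The second anchor moved by 5 kb between libraries, at 111490001 in replicate 1 and 111495001 in replicate 2 of both conditions. The TTK loop, of 100 kb with 25 kb anchors, joined the TTK start to BCKDHB on chromosome 6 in vehicle replicate 2 alone, with 48 contacts against 24.2 expected.

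Of the mitotic kinesins, KIF11 had a steady loop at its start and CENPE had loops mostly in its 3′ flank. The KIF11 loop spans 55 kb on chromosome 10 from 94275001 to 94335000, with an anchor over the adjoining starts of KIF11 and IDE, the insulin-degrading enzyme gene, and the other anchor within IDE. It had identical anchors in all 4 lists, with 41 and 46 contacts under vehicle and 36 and 39 under THZ1. Expected contacts were 5.86 and 6.27 with vehicle and 9.34 and 8.05 with THZ1, which gives ratios of 7.00 and 7.33 against 3.85 and 4.85. Contacts were thus somewhat lower, and expected contacts higher, in both THZ1 libraries. A loop of 35 to 50 kb within KIF11 was called in both vehicle libraries and THZ1 replicate 1, with ratios of 2.52, 2.76 and 2.65.

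At CENPE on chromosome 4, a 470 kb loop from an intergenic anchor to BDH2 in the 3′ flank (103540001 to 104015000) had 15 and 13 contacts with vehicle and 18 in THZ1 replicate 1, and ratios of 8.17, 7.12 and 7.33. A loop of 650 to 660 kb from the transporter gene SLC39A8 to the same flank was called in vehicle replicate 2 and both THZ1 libraries. The loops at the CENPE start were 600 to 750 kb long and had no protein-coding gene at the far anchor. That called in both THZ1 libraries (104100001 to 104875000) had ratios of 3.37 and 4.85 at anchor widths of 25 and 10 kb. Vehicle replicate 2 had a 700 kb loop next to it, with a ratio of 2.96, and matching within 50 kb joined them, so that no loop was then called in both THZ1 libraries alone. The longest loop of all 91, of 3150 kb, was called in vehicle replicate 1 alone and ran from this flank to H2AZ1 and DNAJB14.

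TOP2A had 7 distinct loops on chromosome 17, none of them in all 4 libraries. A loop of 35 to 55 kb from the TOP2A start was called in both vehicle libraries and THZ1 replicate 1, with ratios of 2.25, 2.07 and 3.04 at different anchors. A 35 kb loop from the start to IGFBP4 (38570001 to 38610000) had identical anchors in vehicle replicate 2 and THZ1 replicate 2, with 36 contacts against 10.9 expected and 33 against 15.2. The 5 others were called once. Those of THZ1 replicate 2 were the longest, 400 kb to KRT26, KRT27 and KRT28 and 1275 kb to EIF1, both with 25 kb anchors.

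**Figure D4:**
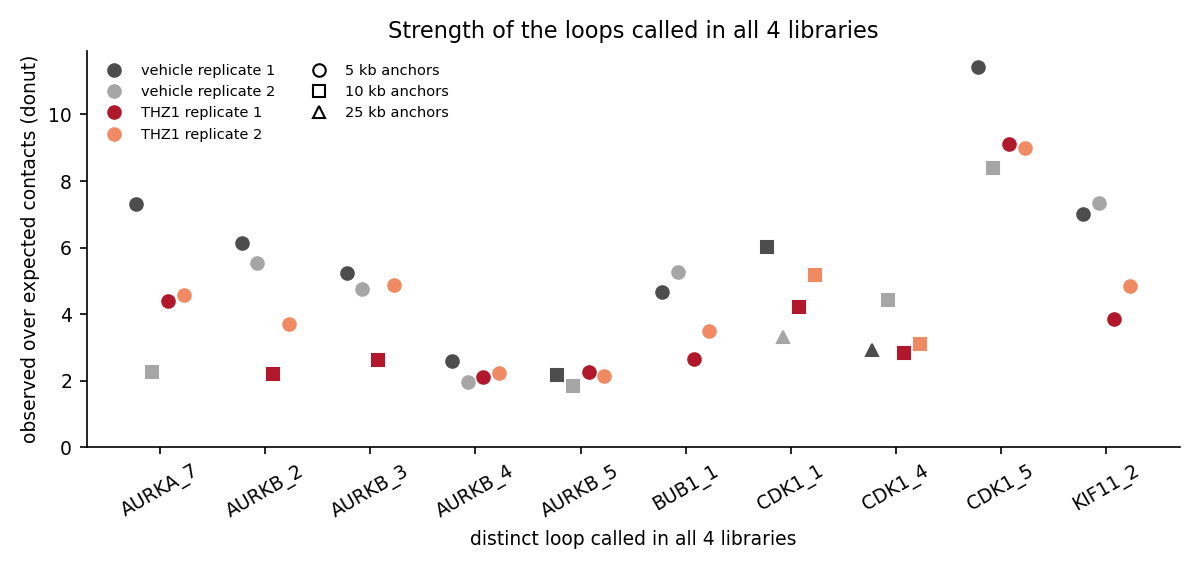
Observed over expected contacts (donut) of the 10 distinct loops called in all 4 libraries. Each point is a library, colour gives the library and shape the anchor width. At AURKB_2, BUB1_1 and KIF11_2 both THZ1 points lie below both vehicle points.

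Over the 10 distinct loops called in all 4 libraries, observed over expected contacts were lower in both THZ1 libraries at 3, near AURKB (HES7 to BORCS6), at BUB1 and at KIF11, and higher in both at 0. In the series 50.4% of 8398 such loops were lower and 5.62% higher. The median log2 ratio of THZ1 to vehicle was -0.20 for the 10 loops and -0.36 for the 8398, so the count at these genes was not above the background. When identical anchors were joined first, a setting chosen after seeing the data, the 35 kb loop across AURKB counted too and 4 of 10 were lower, beside 50.6% of 8339 loops lower and 5.58% higher. These ratios come from calls of different anchor width at 7 of the 10 loops. The KIF11 loop and 1 loop near AURKB had identical anchors in all 4 lists, as did another loop near AURKB whose calls the joining rule split.

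These 3 loops entered a test of strength over the 2617 loops with identical anchors in all 4 lists, by edgeR's quasi-likelihood test of the contacts with the donut expectation as offset. With THZ1, 27.5% of the 2617 loops were weaker and 0.0382% stronger at an adjusted p under 0.05, around a median log2 change of -0.41. This one-sidedness rests on the expectation: on contacts alone, 108 loops were weaker and 67 stronger in edgeR with TMM (median log2 change -0.0057), and DESeq2's size factors called 0 of the 2617 (118 at an unadjusted p under 0.05). The KIF11 to IDE loop was weaker, with a log2 change of -0.73 (SE 0.21, adjusted p = 0.0151 in edgeR). The 35 kb loop that spans AURKB from BORCS6 to CTC1 (8090001 to 8130000) was weaker too, with 52 and 55 contacts against 41 and 34, expected contacts of 13.3, 16.4, 18.1 and 15.8, and a log2 change of -0.70 (SE 0.20, adjusted p = 0.0151 in edgeR). The 35 kb loop from BORCS6 to PER1, the clock gene (8055001 to 8095000), had 46 and 46 contacts against 44 and 42 and a log2 change of -0.05 (SE 0.20, adjusted p = 0.88 in edgeR). Both calls ended when any 1 library was left out, with adjusted p from 0.0708 to 0.136 for KIF11 and from 0.0688 to 0.121 for AURKB in edgeR. The log2 changes then ran from -0.89 to -0.56 for KIF11 and from -0.82 to -0.60 for AURKB. Of all 2617 loops, edgeR called 0 without vehicle replicate 2, THZ1 replicate 1 or THZ1 replicate 2 (697, 820 and 745 at an unadjusted p under 0.05), and 226 without vehicle replicate 1. On contacts alone, with TMM and no expectation, the log2 change was -0.20 (edgeR adjusted p = 0.672) at KIF11 and -0.50 (edgeR adjusted p = 0.151) near AURKB.

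**Figure D5:**
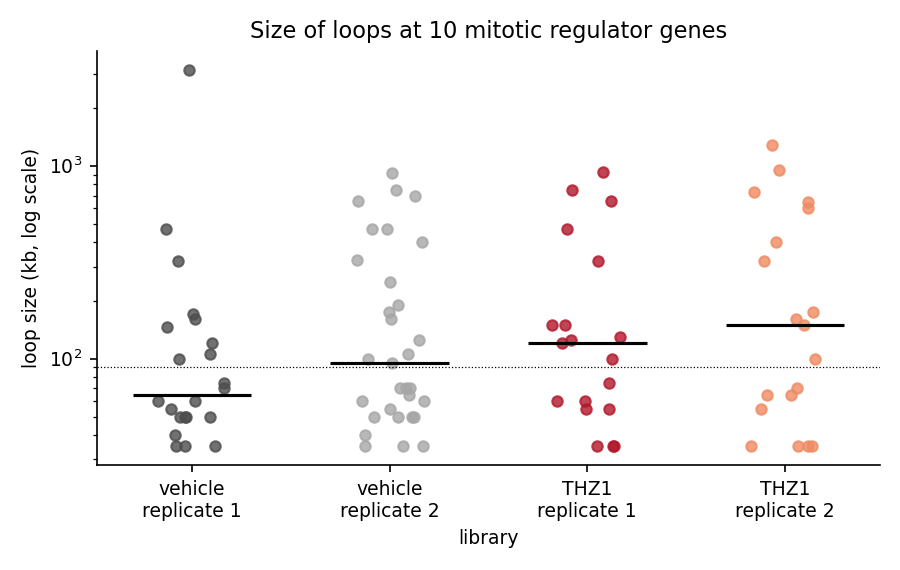
Size of the loops at the 10 genes in each library, on a log scale in kb. Points are loops, bars are medians and the dotted line marks 90 kb. The medians are 65 and 95 kb for vehicle, below the 120 and 150 kb for THZ1.

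The loops at these genes ran from 35 to 3150 kb. Their median size was 65 kb in vehicle replicate 1, 95 kb in vehicle replicate 2, 120 kb in THZ1 replicate 1 and 150 kb in THZ1 replicate 2, so the conditions did not overlap. Averaged, the medians were 80.0 ± 21.2 kb (SD, n = 2) for vehicle and 135 ± 21.2 kb (SD, n = 2) for THZ1, beside 140 and 200 kb for all loops. Vehicle lists had 13 of 22 and 15 of 31 loops of 90 kb or less at these genes, and THZ1 lists had 8 of 19 each. Over all loops of the series, the share of this size fell likewise, from 37.3% and 36.8% with vehicle to 26.2% and 25.5% with THZ1. Loops over 300 kb at these genes numbered 3 and 8 against 5 and 7, with overlap. Loops with 25 kb anchors numbered 1 and 6 in the vehicle lists and 3 and 6 in the THZ1 lists, and without them the log2 ratio of the medians moved from 0.75 to 0.23. By their place on the gene, 28 of the 91 calls had an anchor on the start site, 14 on another exon, 1 on an intron alone and 48 on the flanks alone.

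Contact domains that hold a whole gene were listed for none of the 10 genes in either vehicle library. In THZ1 replicate 1 they held AURKB (310 kb, 7970001 to 8280000) and KIF11 (370 kb, 94260001 to 94630000). In THZ1 replicate 2 they held AURKB (240 kb, 7980001 to 8220000) and CCNB1 (210 kb, 68420001 to 68630000). AURKB was thus the only one of the 10 inside a domain in both THZ1 libraries. Over all 20149 protein-coding genes, 11.9% and 13.7% lay inside a domain under vehicle and 21.4% and 21.1% under THZ1. The lists held 1198 and 1398 domains with vehicle and 2477 and 2345 with THZ1. The share of all genes inside a domain in both THZ1 libraries and no vehicle library was not computed.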

How the data were processed

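Arima-HiC reads of 4 libraries were processed by the authors with Juicer 1.6 on hg19, per the submitters' notes, and the loop lists name juicer_tools 1.19.02. In the deposited loop lists, observed values are raw counts of contacts at the peak pixel, the expected signal of 4 local neighborhoods is given in the same unit, and FDR values are q-values (p-value type) up to 0.0997. The authors' filters are not given in the sources used here. The authors' deposited tables of unique loops hold their own comparison and were not used.

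Loop size was the distance between anchor starts. Motif cores were counted without chromosome 8. Calls were joined by taking the call with the most contacts first and the nearest call of each other list within 20 kb. Lists were read with Python 3.11.15, pandas 2.3.3 and scipy 1.17.1. Strength was fitted with edgeR 4.0.16 in R 4.3.3 (log donut expectation as offset, expected above 0.01 in donut and bottom-left, 2617 of 2624 loops, Benjamini-Hochberg at 0.05), with DESeq2 1.42.0 as an alternative, and the code was tested on simulated data. At these loops, counts differed with chi-square per degree of freedom of 0.819 and 0.813 within conditions and of 1.50 to 1.79 between them. Within conditions, the spread at these loops was thus no more than counting noise. They were chosen as called in every list, so the values do not cover loops called in fewer lists.

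Loops were named when they had identical anchors in all 4 lists (up to 3 per gene), when they were called in both libraries of 1 condition only (up to 2 per gene and direction), or, for a gene with none of the first kind, as the loop called in most libraries. Others named were chosen after their values were seen. The genes and lists were chosen with earlier results of these data known.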

Additional observations from a re-analysis of the deposited data

How the results depend on the processing

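Replicate numbers did not pair the libraries (correlation of deviations 0.016), and with a replicate block 2 of the 3 tested loops were still weaker (edgeR adjusted p = 0.0101 for KIF11 and 0.0073 for AURKB), as with the bottom-left expectation and with at least 20 contacts in every library. With the threshold on edgeR's adjusted p, 0 of the 3 loops passed on TMM-normalized contacts (1 at an unadjusted p under 0.05), beside 108 weaker and 67 stronger of 2617, and DESeq2's size factors called 0 (0 unadjusted), beside 0 of 2617. Of 10 loops matched within 20 kb, edgeR called 0 (3 unadjusted), as of all 8398 (1878 unadjusted), and without any 1 library it called from 0 to 0 (2 unadjusted each), beside 0 of 2617 in 3 of these fits and 226 without vehicle replicate 1, with the lone library of a condition assumed to vary like the other condition. DESeq2 with the donut expectation gave these loops no adjusted p, and unadjusted p of 0.0560 for KIF11 and 0.0493 for AURKB. The log2 change of the BORCS6 to PER1 loop ran from -0.26 to 0.14 without 1 library, and reversed without vehicle replicate 1.

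The log2 ratio of loop numbers moved from -0.48 to 0.015 per 10000 loops of the library, and that of median sizes from 0.75 to 0.23 without 25 kb anchors. The log2 ratio of median observed over expected contacts, -0.38, was itself within the spread between replicates (SD 0.45). The medians overlapped, at 5.01 and 3.29 under vehicle and 2.98 and 3.38 under THZ1, and the log2 ratio was -0.05 without vehicle replicate 1. Genes with fewer loops in THZ1 numbered 3 of 10, 1 with the gene body alone and from 3 to 6 without 1 library, and those with more 0, 1 with the gene body alone (CENPE), 1 without vehicle replicate 2 (CENPE) and 1 without THZ1 replicate 1 (AURKA). Shares over all genes were not computed for these alternatives. Vehicle-only loops numbered 3, and loops in every library 10. Without 1 library, which loosens the definitions, they numbered from 5 to 13 and from 9 to 14, with no share over all loops computed. THZ1-only loops numbered 1, and 0 when matched within 10 kb or 50 kb or without 25 kb anchors, and from 1 to 6 without 1 library. Joining identical anchors first, an alternative chosen after seeing the data like those for loops per gene and the left-out libraries in these counts, kept 3 vehicle-only loops. The 35 kb loop across AURKB, split by the joining rule, was then in all 4 libraries (ratios of 3.91 and 3.35 with vehicle, 2.27 and 2.15 with THZ1), and a 50 kb loop from TMEM107 to CTC1 took its place as vehicle-only.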
